A study of Xenopus laevis with 12 samples.

Results

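Ion pumps and channels are the membrane proteins that move protons, sodium, potassium, calcium, chloride and water across cell membranes. In Xenopus laevis animal caps, 72 genes of this kind were measured among 6505 genes with a single symbol in the probe annotation of the array. They were chosen by symbol alone, with the ending for the L or S subgenome removed. The symbols chosen were those of the proton pump (the atp6 genes), the sodium, potassium and proton exchanging pumps (atp1a, atp1b, atp4a, atp4b, atp12a, fxyd), the calcium pumps (atp2a, atp2b, atp2c), the potassium, sodium, calcium, chloride and TRP channels, the aquaporins and the anoctamins. Where a gene had several probe sets, the one with the highest average log2 signal stood for it. The 72 genes had 101 probe sets between them, 23 genes had more than 1, and 2 probe sets that carried several of these symbols were not used.

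The proton pump, or V-ATPase, has a cytoplasmic V1 sector that splits ATP and a membrane V0 sector through which protons pass. It acidifies endosomes and lysosomes in every cell, and proton-secreting cells such as the ionocytes of the Xenopus embryonic epidermis and the intercalated cells of the kidney also carry it at the cell surface. The gene atp6v1b1 encodes the B1 form of a V1 subunit and is known as a marker of such proton-secreting cells, whereas atp6v1b2 encodes the widespread B2 form. The sodium pump, with its beta subunits, sets the sodium and potassium gradients on which most of the channels described here act.

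Animal caps are the pluripotent ectoderm of the blastula, which forms epidermis when cultured alone and mesodermal tissue, kidney included, when cultured with inducers. Caps were dissected at stage 9 and held in 4 groups, namely untreated caps of uninjected embryos (C), uninjected caps treated with 10 ng/ml activin and 0.0001 M retinoic acid (AcRA), untreated caps after injection of lhx1-AS at 800 pg per embryo (lhx1-AS), and injected caps that also received the same activin and retinoic acid (lhx1-AS/AcRA). Activin is a TGF-beta family ligand, retinoic acid is a patterning signal, and lhx1-AS is an antisense oligonucleotide against the RNA of the homeobox gene lhx1. The 3 arrays of a group came from separate experiments, numbered I, II and III, and each RNA came from about 12 pooled caps. The labels put harvest at sibling stage 12.5, whereas the study's text gives a later stage. No group received a control oligonucleotide, so an effect through lhx1 and any other effect of the injection cannot be told apart.

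The array measured each probe set as a linear GCOS signal, scaled by the authors to 1 common mean, and the median signal of an array was 108 to 151. On the C arrays the lhx1 signal was 19.8, 2.19 and 2.60 and on the lhx1-AS arrays 1.55, 42.6 and 3.20. It was 316, 823 and 779 on the AcRA arrays and 1144, 991 and 1614 under the label lhx1-AS/AcRA. In induced caps, then, the signal of the targeted gene did not fall under the lhx1-AS/AcRA label. Where its probe set lies relative to the oligonucleotide's target is not known here, so that this signal does not check the labels if it lies outside. Under scaling of the arrays to 1 median the median change of all probe sets became 0.26 in lhx1-AS/AcRA against AcRA and 0.24 in lhx1-AS against C (log2), from 0.02 and -0.01. The share of calls that were lower went from 72.0% to 50.5% in the first of these and from 63.9% to 37.7% in the second, and under quantile normalization it was 63.9% and 53.2%.

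In the fit without a block for the experiment, few ion transport genes changed between AcRA and C, whereas with lhx1-AS more were called lower than higher. With the block, 3 were higher and 8 lower in AcRA against C, so that more fell than rose there too. A gene was called where limma's adjusted p over all 15503 tested probe sets was under 0.05. In AcRA against C, 3 of the 72 genes were called higher (atp1b3, kcnk6 and aqp11), beside 3.61% of all genes, and 3 were called lower (scnn1g, kcna4 and kcnk5), beside 3.12% of all genes. In lhx1-AS against C, none was called higher, beside 3.23% of all genes, and 5 were called lower (atp6v1al, atp6v0d2, atp6v0b, atp2a3 and kcne5), which is 6.94% of the members beside 4.64% of all genes. At an unadjusted limma p under 0.05, 2 of the 72 genes (2.78%) were higher in that comparison, beside 11.1% of all genes. In lhx1-AS/AcRA against AcRA, 1 was called higher (kcnk5), beside 3.15% of all genes, and 10 were called lower, which is 13.9% of the members beside 6.96% of all genes. The 10 were atp6v1b1, atp6v1al, atp6v0d2, atp6v0b, atp6v1a, atp6ap1.1, atp12a, atp2a1, atp2a3 and scnn1a. In lhx1-AS/AcRA against lhx1-AS, 3 were called higher (atp1b3, kcnk6 and clcn3), beside 4.47% of all genes, and 2 were called lower (atp6v1b1 and scnn1a), beside 4.57% of all genes. By these calls, made without a block for the experiment, the members' shares in AcRA against C and in lhx1-AS/AcRA against lhx1-AS lay within 2 percentage points of the background. At an unadjusted limma p under 0.05 the lower shares lay further off. In AcRA against C, 13.9% of the members were lower, beside 8.36%, and 6.94% higher, beside 8.10%. In lhx1-AS/AcRA against lhx1-AS, 19.4% were lower, beside 9.99%, and 11.1% higher, beside 9.18%. In all, 18 of the 72 genes were called in at least 1 comparison and 54 in none. The comparisons share arrays, so that they are not independent of each other.

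The arrays of 1 experiment deviated together, and with a block for the experiment more calls were made among all genes. Calls also rose among these genes, except for the higher calls of AcRA against C, but not in equal measure. Lower calls in lhx1-AS against C went from 5 to 15 of these genes, and from 4.64% to 10.6% of all genes. In lhx1-AS/AcRA against AcRA they went from 10 to 17, and from 6.96% to 12.4% of all genes. With the block, AcRA against C had 3 members higher, beside 5.95% of all genes, and 8 lower, beside 6.03%. In lhx1-AS against C it had 1 higher, beside 9.22%, and 15 lower, beside 10.6%. For lhx1-AS/AcRA against AcRA it had 4 higher, beside 8.15%, and 17 lower, beside 12.4%. For lhx1-AS/AcRA against lhx1-AS it had 6 higher, beside 7.06%, and 9 lower, beside 7.41%. The calls of all 18 genes held with the block. Without the array of AcRA experiment I the count of 10 lower in lhx1-AS/AcRA against AcRA became 4, without lhx1-AS/AcRA experiment II it became 6, and without C experiment III the count of 5 lower in lhx1-AS against C became 3. The shares of all genes without these arrays were not counted.

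Signals of atp6v1b1 were 1798, 1306 and 4485 on the C arrays (here and below in the order of experiments I to III) and 1224.5, 1670 and 2372 on the AcRA arrays. On the lhx1-AS arrays they were 856, 232 and 341, and those labelled lhx1-AS/AcRA gave 7.08, 37.2 and 1.74. The C and AcRA arrays overlapped, all lhx1-AS arrays lay below them, and all arrays labelled lhx1-AS/AcRA lay below every other array. The fold change of lhx1-AS/AcRA against AcRA was -7.78 ± 0.84 (log2, SE) with an adjusted p of 8.47e-05. This was the lowest fold change among the 6505 genes in this comparison, and the third lowest with 32 added to every signal. Against lhx1-AS it was -5.72 ± 0.84 (adjusted p = 0.000401). AcRA against C gave -0.37 ± 0.84 (adjusted p = 0.949) and lhx1-AS against C gave -2.43 ± 0.84 (adjusted p = 0.0990), neither of which passed. The lowest signals of the array have little precision, and with 32 added the 2 called values were -5.26 and -3.30 with the calls kept. Leaving out lhx1-AS/AcRA experiment II gave -8.92 and -6.86, and leaving out its experiment III gave -6.71 and -4.65, again with the calls kept. RNA was read from whole caps, so fewer cells that carry a transcript and less RNA per cell cannot be told apart here or in the results that follow.

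**Figure D1:**
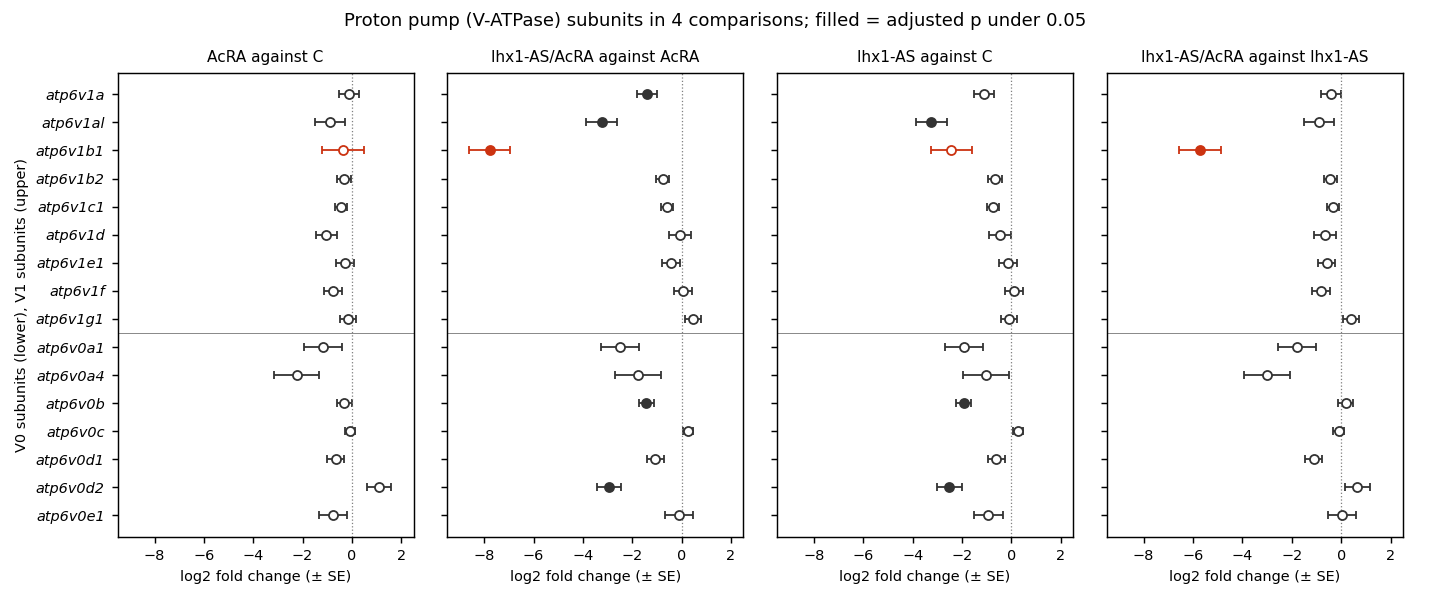
Limma's log2 fold change (x axis, ± SE) of the 16 proton pump subunits (y axis, V1 above and V0 below the line) in 4 comparisons, with atp6v1b1 in red and filled points where the adjusted p was under 0.05. In lhx1-AS/AcRA against AcRA, atp6v1b1 stood at -7.78 and the other 15 subunits between -3.24 and 0.47.

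The other proton pump subunits were measured by 15 genes, none of which was called in AcRA against C, where their median change was -0.46 beside 0.01 for all genes. At an unadjusted limma p under 0.05, 1 of the 15 was higher, beside 8.10% of all genes, and 3 were lower, beside 8.36%. With the block 1 was called lower there (atp6v1d, -1.04, adjusted p = 0.245 without and 0.0306 with the block). Between lhx1-AS/AcRA and AcRA, 4 of the 15 (26.7%) were lower in the former, beside 6.96% of all genes, with a median of -0.77 beside 0.03 for all genes. In lhx1-AS against C, 3 (20.0%) were lower, beside 4.64% of all genes, with a median of -0.75 beside 0.02. All of the 15 except atp6v0a4 lay outside the dimmest 40% of probe sets. Of all genes of that brightness, 9.22% were called lower in lhx1-AS/AcRA against AcRA and 6.2% in lhx1-AS against C. Between the injected groups none of the 15 was called and the median was -0.44 beside 0.00. At an unadjusted limma p under 0.05, 4 of the 15 were lower there, beside 9.99% of all genes, and none was higher, beside 9.18%. With the block 7 of the 15 were lower in lhx1-AS/AcRA against AcRA, 6 in lhx1-AS against C and 2 in lhx1-AS/AcRA against lhx1-AS, beside 12.4%, 10.6% and 7.41% of all genes. The calls gained with the block in the first of these were atp6v0a1 (-2.52, adjusted p = 0.0545 without and 0.0196 with the block), atp6v1b2 (-0.77, 0.0922 and 0.0392) and atp6v0d1. In lhx1-AS against C they were atp6v1a (-1.12, adjusted p = 0.121 and 0.0270), atp6v0e1 (-0.93, 0.370 and 0.0465) and atp6v1c1, and between the injected groups atp6v0a4 (-2.99, 0.0674 and 0.0280) and atp6v0d1 (-1.11, 0.0767 and 0.0333).

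For atp6v0d2, a form of the d subunit of the V0 sector that is abundant in kidney and osteoclasts of mammals, the signals were 308, 220 and 657 on the C arrays and 807, 383 and 1394 on the AcRA arrays. They were 82.5, 71.8 and 40.6 on the lhx1-AS arrays and 107, 110 and 78.5 under the label lhx1-AS/AcRA. Every array of an injected group was below every array of an uninjected group. The change was -2.95 ± 0.50 in lhx1-AS/AcRA against AcRA (adjusted p = 0.00197) and -2.51 ± 0.50 in lhx1-AS against C (adjusted p = 0.00950), and the second missed the threshold without C experiment III (-2.07, adjusted p = 0.0528). Induction gave 1.09 ± 0.50 in uninjected and 0.65 ± 0.50 in injected caps, neither of which passed.

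The gene atp6v1al had signals of 446, 796 and 700 in C and of 291, 454 and 289 in AcRA. In lhx1-AS they were 53.5, 67.0 and 80.1, and those labelled lhx1-AS/AcRA gave 9.68, 69.3 and 67.7. Again the arrays of injected and uninjected embryos did not overlap. The changes with lhx1-AS were -3.25 ± 0.62 in untreated caps (adjusted p = 0.00693) and -3.24 ± 0.62 in treated caps (adjusted p = 0.00396), the latter -2.30 without lhx1-AS/AcRA experiment I. The change with induction was -0.90 ± 0.62 in uninjected and -0.89 ± 0.62 in injected caps.

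A membrane proteolipid subunit, atp6v0b, gave signals of 747, 631 and 706 in C and of 626, 487 and 576 in AcRA. In lhx1-AS they were 274, 147 and 145, and those labelled lhx1-AS/AcRA gave 199, 248 and 178. The injected groups overlapped each other and were below both uninjected groups. The change was -1.94 ± 0.30 in lhx1-AS against C (adjusted p = 0.00238) and -1.44 ± 0.30 in lhx1-AS/AcRA against AcRA (adjusted p = 0.00788). The 3 genes atp6v0d2, atp6v1al and atp6v0b thus shared a level that was low in both injected groups, with changes of 0.19 to 0.65 or, for atp6v1al, of -0.89 between these groups. In contrast, atp6v1b1 was lower by 5.72 on the log2 scale in the induced injected caps than in the untreated injected caps.

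The catalytic A subunit atp6v1a had the highest adjusted p of the 4 calls. Its signals were 325, 179 and 314 in C, 292, 209 and 226 in AcRA, 192, 72.8 and 128 in lhx1-AS and 81.1, 80.2 and 116 under the label lhx1-AS/AcRA. The AcRA arrays and the arrays labelled lhx1-AS/AcRA did not overlap, and the change between them was -1.40 ± 0.41 (adjusted p = 0.0461). The call was lost on leaving out any of 9 arrays, with adjusted p between 0.0569 and 0.169, namely C I and III, lhx1-AS III and each AcRA array and each array labelled lhx1-AS/AcRA. It was also lost under both rescalings and without the variance trend, and the second probe set of the gene gave -0.82 ± 0.37 (adjusted p = 0.198).

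The V0 proteolipid atp6v0c and the V1 stalk subunit atp6v1c1 passed in no comparison. Signals of atp6v0c lay between 4065 and 7206 on the 12 arrays, the groups overlapped in each of the 4 comparisons, and its changes were -0.10 to 0.27 with an SE of 0.21. Those of atp6v1c1 lay between 789 and 2180, with -0.61 ± 0.24 in lhx1-AS/AcRA against AcRA and -0.75 ± 0.24 in lhx1-AS against C (adjusted p = 0.132 and 0.0737, and 0.0265 for the second with the block). The V1 subunit atp6v1g1 gave 0.47 ± 0.32 and -0.10 ± 0.32 in the same comparisons, and atp6v0d1, the widespread form of the d subunit, gave -1.07 ± 0.35 and -0.62 ± 0.35. The first of the atp6v0d1 values had an adjusted p of 0.0771, and of 0.0320 with the block.

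Set against the median of the other 15 subunits on the same array, atp6v1b1 changed by -6.80 ± 2.47 (log2, SD of 3 experiments) from AcRA to lhx1-AS/AcRA, with -6.14, -4.72 and -9.53 in experiments I, II and III. From lhx1-AS to lhx1-AS/AcRA the change was -5.52 ± 2.55, with -6.46, -2.63 and -7.47. All 6 of these within-experiment values were below 0. With 32 added they averaged -4.38 and -3.12. From C to AcRA this ratio changed by -0.05 ± 0.59 and from C to lhx1-AS by -1.32 ± 0.85, both without a test. A ratio within an array shows unequal change and not that the other subunits were unchanged.

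By correlation of log2 signal over the 12 arrays, the genes most like atp6v1b1 among 4466 genes outside the dimmest 40% were MGC52622 (r = 0.975), fut6 (0.969), b4galt3 (0.964), golph3l (0.961) and lpcat3 (0.961). The 12 arrays are 4 groups of 3 and share their group differences, so these values are descriptions. The 5 genes changed by -5.12, -5.64, -3.32, -2.73 and -2.58 respectively in lhx1-AS/AcRA against AcRA. Among the other ion transport genes the highest values were those of atp6v0d1 (0.905), atp6v1b2 (0.900) and scnn1a (0.832). The subunits atp6v1a (0.758) and atp6v1al (0.768) followed the pattern of atp6v1b1 less closely.

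Summed signals of ionocyte markers were lower in all 3 other groups than in C, though in lhx1-AS the markers did not fall as a set. Of 15 listed ionocyte genes 9 were measured, 2 of them proton pump subunits themselves (atp6v0d2 and atp6v0a4), and their summed signal was 3899 to 4375 in C, 1605 to 2483 in AcRA, 2247 to 3004.5 in lhx1-AS and 822 to 1460 in the group labelled lhx1-AS/AcRA. Calls of marker genes, here and below, are those of the fit without the block and were not checked with it. Of the 9, 2 were called lower in AcRA against C (beside 3.12% of all genes) and 3 in lhx1-AS/AcRA against AcRA (6.96%). In lhx1-AS against C, 1 was called lower (4.64%), and in lhx1-AS/AcRA against lhx1-AS 5 were (4.57%). In the last of these the anion exchanger slc4a1 was called higher. The 1 call in lhx1-AS against C was atp6v0d2, a pump subunit itself and also among the 3 against AcRA. No other listed gene passed in lhx1-AS against C, where the median of the 9 was -0.28. The carbonic anhydrase gene ca12 had signals of 2223, 1975 and 1218 in C, 249, 297 and 250 in AcRA, 766, 919 and 487 in lhx1-AS and 15.5, 90.5 and 72.7 under the label lhx1-AS/AcRA. The sum weighs bright genes such as ca12 most. In lhx1-AS against C, ca12 gave -1.32 ± 0.53 (adjusted p = 0.155), atp6v0a4 -1.03, rhbg -0.57 and ca2 -0.28. Values near 0 were those of ubp1 (-0.04), slc4a1 (-0.03) and gata3 (0.0). In AcRA against C, ca12 thus fell by 2.73 ± 0.53 on the log2 scale (adjusted p = 0.00540) and the transcription factor gene ubp1 fell by 2.48 ± 0.40 (adjusted p = 0.00132), where atp6v1b1 was not called. The other listed markers were not called there either and did not all fall. They included slc4a1 (2.56 ± 0.77, adjusted p = 0.0725), atp6v0d2 (1.09), rhbg (0.15) and gata3 (-0.76 ± 0.32, adjusted p = 0.245). Lower values were those of ca2 (-2.19) and atp6v0a4 (-2.25), and the median of the 9 was -1.90. Signals of foxi1, the factor that specifies ionocytes, named here after its values were seen, were 123, 63.2 and 143 in C, 35.9, 14.9 and 40.3 in AcRA, 239, 151 and 222 in lhx1-AS and 22.8, 1.25 and 7.95 under the label lhx1-AS/AcRA. It was not lower in lhx1-AS than in C (0.95 ± 0.86, adjusted p = 0.574), where atp6v0d2, atp6v1al and atp6v0b were called lower. In lhx1-AS/AcRA against lhx1-AS, foxi1 was called lower (-5.04 ± 0.86, adjusted p = 0.0013), as atp6v1b1 was. Its changes of -1.90 in AcRA against C and -2.19 in lhx1-AS/AcRA against AcRA did not pass (adjusted p = 0.299 and 0.137). The marker ca2 was under 10 on all 3 arrays labelled lhx1-AS/AcRA, and rhbg on all 3 lhx1-AS arrays.

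Other epidermal lists were also lower in lhx1-AS/AcRA than in AcRA in summed signal, but not all followed atp6v1b1 across the groups. The summed signal of 7 goblet and secretory genes, otogl2 and grhl1 included, was 29126 to 33247 in C, 14032 to 21558 in AcRA, 24528 to 32147 in lhx1-AS and 7578 to 9840 under the label lhx1-AS/AcRA. Of the 7, 1 was called lower in AcRA against C, 3 in lhx1-AS/AcRA against AcRA, none in lhx1-AS against C and 4 in lhx1-AS/AcRA against lhx1-AS. In lhx1-AS/AcRA against AcRA the change was -5.67 for itln1 (adjusted p = 1.43e-05) and -3.04 ± 0.46 for grhl1 (adjusted p = 0.000843). For otogl2 it was -0.09 ± 0.19 (adjusted p = 0.839) and for foxa1 1.14 (adjusted p = 0.467), and the median of the 7 was -0.12. The outer and basal list of 6 genes, which includes the keratin krt70 and the adhesion gene epcam, summed to 29249 to 32805 in C, 20572 to 25013 in AcRA, 32705 to 36002 in lhx1-AS and 2831 to 14488 under the label lhx1-AS/AcRA. Of these 6, 1 was called lower in AcRA against C, 1 in lhx1-AS/AcRA against AcRA, where krt70 gave -1.98 ± 0.60 (adjusted p = 0.0516), none in lhx1-AS against C and 5 in lhx1-AS/AcRA against lhx1-AS. The sum over the 6, most of it krt70, was thus not lower in lhx1-AS than in C, where every atp6v1b1 signal was. By gene, krt70 gave 0.21 and tfap2a 0.82 in lhx1-AS against C. The others gave -0.95 (tp63), -0.29 (dlx3), -0.17 (dlx5) and -0.12 (epcam), with a median of -0.14 for the list. The sum of 7 genes of multiciliated cells, such as ccno and rfx2, was 2831 to 4834 in C, 344 to 586 in AcRA, 1438 to 2912 in lhx1-AS and 159 to 335 under the label lhx1-AS/AcRA. Of these 7, 5 were called lower in AcRA against C, where atp6v1b1 was not, 1 in lhx1-AS/AcRA against AcRA, 2 in lhx1-AS against C and 5 in lhx1-AS/AcRA against lhx1-AS. Among all genes the shares called lower were 3.12%, 6.96%, 4.64% and 4.57% in the same order. These shares also stand beside the counts of the goblet and secretory list and of the outer and basal list. The part of these cell types in the changes of the pump genes was not tested. Of 7 listed markers of pronephric transport only pax8 was measured, at 2.01 to 54.2 over the 12 arrays, so that no statement on kidney tubule cells could rest on that list.

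**Figure D2:**
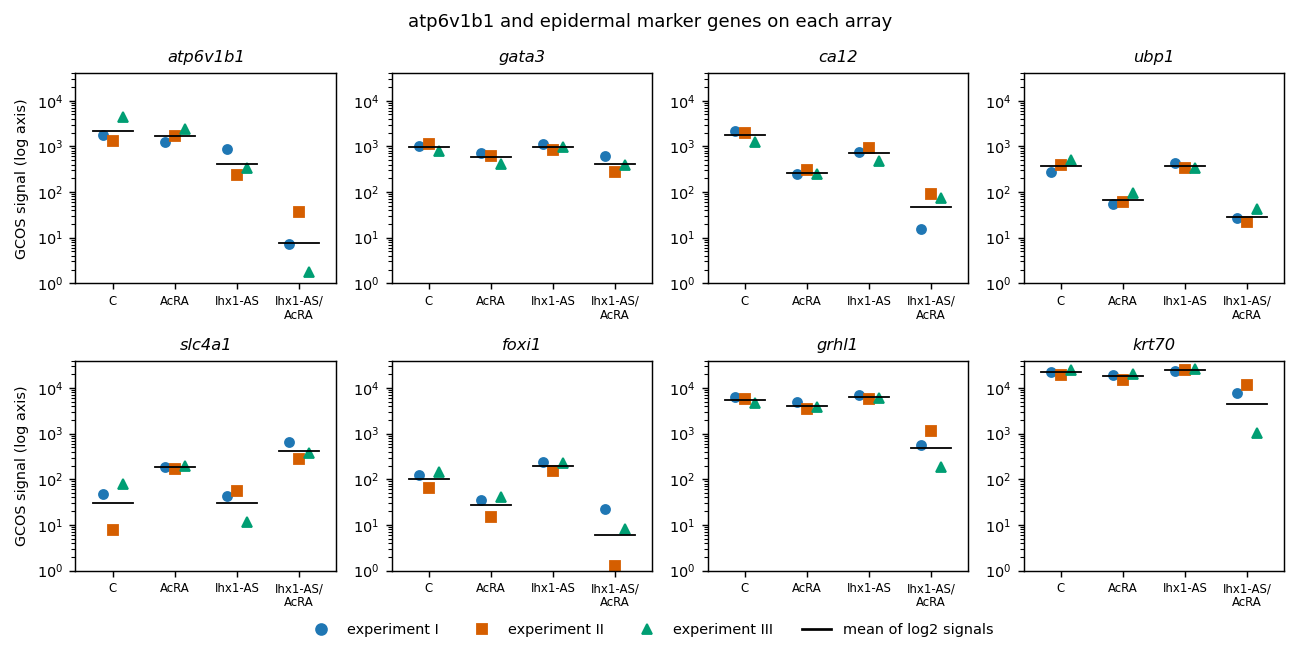
Signal on each array (y axis, GCOS signal, log scale) of atp6v1b1, of 5 ionocyte markers, of grhl1 and of krt70 in the 4 groups (x axis), with 1 symbol per experiment and a line at the mean of the log2 signals. Signals of atp6v1b1 overlapped between C and AcRA, whereas ca12 fell from 1218 to 2223 in C to 249 to 297 in AcRA.

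Of the 3 accessory genes of the pump, atp6ap1.1 was called in 1 comparison. Its signals were 100, 94.5 and 216 in C, 106, 136 and 76.2 in AcRA, 63.6, 75.5 and 72.8 in lhx1-AS and 28.4, 5.25 and 35.0 under the label lhx1-AS/AcRA. The last 3 were below all the others. The change in lhx1-AS/AcRA against AcRA was -2.57 ± 0.66 (adjusted p = 0.0229), or -1.35 with 32 added. Without AcRA I, AcRA II or lhx1-AS/AcRA II the call was lost (adjusted p = 0.0790, 0.0788 and 0.0637, with a change of -1.71 in the last case), as it was in a fit of the compared groups only. Against lhx1-AS the change was -2.02 (adjusted p = 0.0825, and 0.0460 with the block). The bright accessory gene atp6ap2, which encodes the prorenin receptor, gave -1.04 ± 0.34 in the same comparison (adjusted p = 0.0751, and 0.00387 with the block) and -1.01 against lhx1-AS (adjusted p = 0.100, and 0.00489 with the block). In lhx1-AS/AcRA against AcRA, atp6ap1.2 gave -0.68 ± 0.33 (adjusted p = 0.250).

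Among 6 genes of the sodium and hydrogen potassium pumps, the beta subunit gene atp1b3 rose with induction and the non-gastric hydrogen potassium pump gene atp12a fell with lhx1-AS in induced caps. Signals of atp1b3 were 4899, 5829 and 4202 in C and 8341, 9995 and 11361 in AcRA. They were 5109, 5142 and 3643 in lhx1-AS and 13511, 7454 and 11158 under the label lhx1-AS/AcRA. Both induced groups were above both untreated groups on every array. The fold was 1.99 in uninjected caps (0.99 ± 0.24, adjusted p = 0.0214) and 2.27 in injected caps (1.18 ± 0.24, adjusted p = 0.00464), and the first call was lost without C I, C III, AcRA II or AcRA III (adjusted p = 0.0719 to 0.102). That first call was also lost without the variance trend. All 3 probe sets of atp1b3 were called higher in both comparisons. Markers of other tissues rose with induction too. In AcRA against C, 2 of 6 neural genes (sox2, 3.19, and ncam1, 2.14) and 2 of 5 mesoderm genes (wnt8a, 7.30, and cdx4, 8.20) were called higher, beside 3.61% of all genes. Summed signals of the neural list were 484 to 959 in C, 1042 to 2040 in AcRA, 795 to 1612.5 in lhx1-AS and 2120 to 2851 under the label lhx1-AS/AcRA. Those of the mesoderm list were 46.5 to 179, 3568 to 5415, 92.0 to 155 and 2389 to 7849 in the same order. In lhx1-AS/AcRA against AcRA, gsc was called higher (7.89, adjusted p = 0.000683). There wnt8a (-2.29, adjusted p = 0.0375) and ncam1 (-3.14, adjusted p = 0.00378) were called lower. The medians of the mesoderm and neural lists were -1.56 and -0.70 in that comparison. The part of these tissues in the rise of atp1b3, kcnk6 and aqp11 was not tested. The L form also differed between the induced groups, with 3716, 3321 and 5072 in AcRA and 9567, 6474 and 8768 under the label lhx1-AS/AcRA (1.04 ± 0.23, adjusted p = 0.00994), whereas the brightest S probe set gave 0.08 ± 0.24 (adjusted p = 0.896).

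Signals of atp12a were 441, 109 and 1004 in C and 1058, 76.6 and 164 in AcRA. They were 176, 31.5 and 95.9 in lhx1-AS and 26.4, 5.72 and 16.5 under the label lhx1-AS/AcRA. Experiment II gave the lowest array of every group, and the arrays labelled lhx1-AS/AcRA were below all the others. The change in lhx1-AS/AcRA against AcRA was -4.13 ± 0.99 (adjusted p = 0.0169), or -2.59 with 32 added. It lost its call without AcRA I (-3.05, adjusted p = 0.0913) or without lhx1-AS/AcRA II (-3.50, adjusted p = 0.0675), and it was -4.94 without AcRA II. The call was also lost without the variance trend. With the block atp12a also passed in lhx1-AS against C (-2.17 ± 0.99, adjusted p = 0.0164) and lhx1-AS/AcRA against lhx1-AS (-2.58 ± 0.99, adjusted p = 0.00607). These values are those of the L form. The S form of atp12a, at 3.07 to 67.3 on the 12 arrays, gave 0.68 ± 1.14 in lhx1-AS/AcRA against AcRA (adjusted p = 0.797).

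The beta subunit genes atp1b1 and atp1b2 passed only with the block. For atp1b2 the signals were 4588, 1108 and 2399 in C, 2963, 601 and 463 in AcRA, 3456, 512 and 457 in lhx1-AS and 382, 222 and 116 under the label lhx1-AS/AcRA. Experiment I was the highest in every group. The change in lhx1-AS/AcRA against AcRA was -2.13 ± 0.81, with an adjusted p of 0.125 without and 0.00172 with the block. With the block it was also lower in AcRA against C (-1.30, adjusted p = 0.0457), in lhx1-AS against C (-1.30, 0.0311) and in lhx1-AS/AcRA against lhx1-AS (-2.12, 0.00175). For atp1b1 the signals were 1048, 878 and 993 in C, 920, 416 and 553 in AcRA, 661, 437 and 563 in lhx1-AS and 1274.5, 692 and 906 under the label lhx1-AS/AcRA. Its changes with induction ran in opposite directions, with -0.70 ± 0.32 in uninjected and 0.77 ± 0.32 in injected caps, and the difference of 1.47 ± 0.45 had an adjusted p of 0.256 without and 0.0189 with the block. Those changes themselves had adjusted p of 0.0363 and 0.0186 with the block, and the changes of -0.83 in lhx1-AS against C and of 0.64 in lhx1-AS/AcRA against AcRA had 0.0115 and 0.0368.

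Calcium pumps were measured by 5 genes. The endoplasmic reticulum pump genes atp2a1 and atp2a3 fell with lhx1-AS, whereas atp2a2, the widespread pump of this family, was at 6970 to 11850 on the 12 arrays and was not called. Signals of atp2a3 were 1231, 589 and 1161 in C and 1206, 222 and 369 in AcRA. They were 142, 68.2 and 92.6 in lhx1-AS and 125, 55.7 and 125 under the label lhx1-AS/AcRA. All arrays of injected embryos were below all arrays of uninjected embryos. The change was -3.29 ± 0.56 in lhx1-AS against C (adjusted p = 0.00392) and -2.28 ± 0.56 in lhx1-AS/AcRA against AcRA (adjusted p = 0.0194), the latter lost without AcRA I (-1.59, adjusted p = 0.0951) or lhx1-AS/AcRA II (-1.89, adjusted p = 0.0781). The call against AcRA was also lost without the variance trend. Between the injected groups the change was -0.02 ± 0.56 (adjusted p = 0.993).

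Signals of atp2a1, known as the pump of fast skeletal muscle, were 1584, 984 and 1358 in C and 1502.5, 997 and 761 in AcRA. They were 853, 268 and 607 in lhx1-AS and 458, 177 and 240 under the label lhx1-AS/AcRA. The change in lhx1-AS/AcRA against AcRA was -1.96 ± 0.44 (adjusted p = 0.0110), lost without AcRA I (-1.70, adjusted p = 0.0609), and that in lhx1-AS against C was -1.31 ± 0.44 (adjusted p = 0.0880, and 0.00491 with the block). Between the injected groups it was -0.94 (adjusted p = 0.281, and 0.0302 with the block). A second, dimmer probe set of atp2a1 did not follow this pattern, with 2.34, 2.11 and 7.72 in C and 173, 55.9 and 4.69 in AcRA, and it was called in no comparison. Summed signals of 5 skeletal muscle markers were 52.3 to 111 in C, 219 to 547 in AcRA, 68.0 to 189 in lhx1-AS and 110 to 281 under the label lhx1-AS/AcRA, and limma called none of the 5 in any of these comparisons. The plasma membrane pump atp2b1 gave -1.18 ± 0.54 in lhx1-AS/AcRA against AcRA (adjusted p = 0.217, and 0.0352 with the block).

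**Figure D3:**
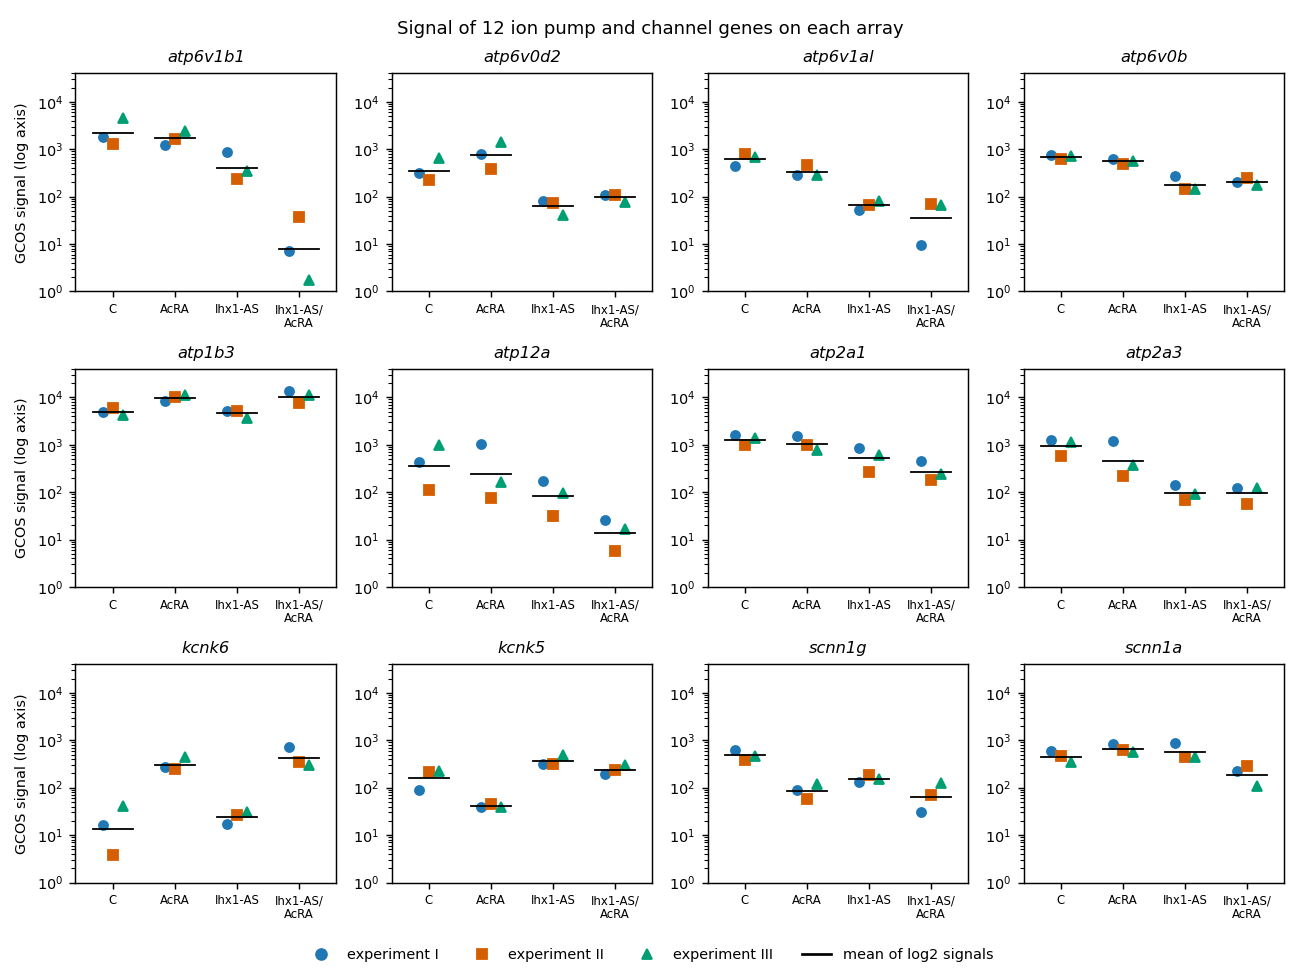
Signal on each array (y axis, GCOS signal, log scale) of 12 pump and channel genes in the 4 groups (x axis), with 1 symbol per experiment and a line at the mean of the log2 signals. The arrays of injected embryos lie below those of uninjected embryos for atp6v1b1, atp6v0d2, atp6v1al, atp6v0b and atp2a3, and both induced groups lie above both untreated groups for atp1b3 and kcnk6.

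Of 22 potassium channel genes, 16 were among the dimmest 40% of probe sets and 4 were called in at least 1 comparison. The largest rise of any ion transport gene with induction was that of kcnk6, a tandem-pore channel that carries a background potassium current. Its signals were 16.1, 3.72 and 40.5 in C and 270, 244 and 442 in AcRA. They were 17.4, 26.7 and 31.3 in lhx1-AS and 717, 350 and 306 under the label lhx1-AS/AcRA. All induced arrays were at 244 or above and all untreated arrays at 40.5 or below. The change was 4.52 ± 0.71 in uninjected caps (adjusted p = 0.00104) and 4.12 ± 0.71 in injected caps (adjusted p = 0.00135), and 0.47 ± 0.71 between the induced groups (adjusted p = 0.770). With 32 added the first values were 2.77 and 3.01. Without C II the change in uninjected caps was 3.59 and without C III it was 5.31, with the call kept.

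The related channel gene kcnk5 went the other way. Its signals were 87.3, 213 and 223 in C and 38.5, 44.6 and 39.3 in AcRA. They were 312, 310 and 499 in lhx1-AS and 191, 234 and 297 under the label lhx1-AS/AcRA. The AcRA arrays were the lowest, and every array of lhx1-AS was above every array of C. The change was -1.98 ± 0.41 in AcRA against C (adjusted p = 0.00899) and 2.54 ± 0.41 in lhx1-AS/AcRA against AcRA (adjusted p = 0.00137). It was 1.18 ± 0.41 in lhx1-AS against C (adjusted p = 0.102, and 0.0243 with the block) and -0.62 ± 0.41 in lhx1-AS/AcRA against lhx1-AS (adjusted p = 0.521). The difference of the 2 responses to induction, 1.36 ± 0.58, did not pass (adjusted p = 0.664). A dimmer probe set of kcnk5 gave -0.97 ± 0.79 and 1.64 ± 0.79 in the 2 called comparisons and was not called.

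The voltage-gated channel gene kcna4 had signals of 119, 122 and 135 in C and of 22.1, 29.5 and 47.1 in AcRA, 63.2, 119 and 85.9 in lhx1-AS and 32.8, 63.5 and 74.0 under the label lhx1-AS/AcRA. The C and AcRA arrays did not overlap (-2.00 ± 0.49, adjusted p = 0.0254, or -1.29 with 32 added), and the call was lost on leaving out any C array, AcRA I or AcRA II (adjusted p = 0.0731 to 0.0995). The accessory subunit gene kcne5 had signals of 197, 134 and 262 in C, 99.9, 98.0 and 76.7 in AcRA, 39.8, 33.6 and 98.0 in lhx1-AS and 39.4, 58.4 and 69.5 under the label lhx1-AS/AcRA. The C arrays were above all others, and lhx1-AS against C gave -1.91 ± 0.49 (adjusted p = 0.0306, lost without C I, C III, lhx1-AS I or lhx1-AS II, with adjusted p of 0.0638 to 0.125). That call was also lost in a fit of the compared groups only. The tandem-pore channel kcnk1, at 66.0 to 385 on the 12 arrays, and the beta subunit kcnab2, at 37.2 to 176, were not called. With the block kcne1 was higher in lhx1-AS/AcRA against lhx1-AS (3.81, adjusted p = 0.0741 without and 0.0439 with the block) and kcnk7 was higher in lhx1-AS/AcRA against AcRA (2.23, adjusted p = 0.201 and 0.00797). The median of the 22 genes was 0.08 in AcRA against C, 0.54 in lhx1-AS/AcRA against AcRA, 0.70 in lhx1-AS against C and 0.39 in lhx1-AS/AcRA against lhx1-AS.

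Of the epithelial sodium channel, which takes up sodium at the apical face of epithelia, the gamma and alpha subunits differed from each other. Signals of the gamma subunit gene scnn1g were 617, 386 and 465 in C and 89.2, 56.8 and 119 in AcRA. They were 131, 182 and 155 in lhx1-AS and 30.4, 68.6 and 128 under the label lhx1-AS/AcRA. The C arrays were above all others. The change in AcRA against C was -2.51 ± 0.49 (adjusted p = 0.00568), and that in lhx1-AS against C was -1.63 ± 0.49 (adjusted p = 0.0599, and 0.0211 with the block). The L form of scnn1g, with signals of 1.65 to 47.8 on the 12 arrays, was not called.

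The alpha subunit gene scnn1a had signals of 593, 460 and 342 in C and of 816, 614 and 555 in AcRA. They were 881, 442 and 438 in lhx1-AS and 220, 285 and 106 under the label lhx1-AS/AcRA. The last group was below all the others. The change was -1.80 ± 0.40 against AcRA (adjusted p = 0.0102, and 0.0528 without AcRA I) and -1.56 ± 0.40 against lhx1-AS (adjusted p = 0.0230). The second call was lost without lhx1-AS I (-1.23, adjusted p = 0.108), without lhx1-AS/AcRA III (-1.15, adjusted p = 0.105), without the variance trend and in a fit of the compared groups only. AcRA against C gave 0.53 ± 0.40 for scnn1a, where scnn1g was called lower. The beta subunit gene scnn1b, at 3.80 to 136 on the 12 arrays, was not called, nor was the voltage-gated channel subunit gene scn2b at 1.14 to 75.6. Changes of scnn1b had the direction of scnn1g in AcRA against C (-1.18 ± 0.90, adjusted p = 0.681) and in lhx1-AS against C (-1.76 ± 0.90, adjusted p = 0.277). Its C and AcRA arrays did not overlap.

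Chloride channels and anoctamins had 5 genes, of which clcn3, an endosomal exchanger of chloride and protons, was called. Its signals were 152, 77.7 and 283 in C and 165, 165 and 437 in AcRA. They were 92.9, 58.0 and 83.0 in lhx1-AS and 978, 447 and 871 under the label lhx1-AS/AcRA. The last group was above every other array. The change was 3.24 ± 0.51 against lhx1-AS (adjusted p = 0.000722), and it was 1.67 ± 0.51 against AcRA (adjusted p = 0.0567, and 0.00416 with the block). A second probe set of clcn3 gave 2.53 ± 0.60 against lhx1-AS (adjusted p = 0.0145) and -0.39 ± 0.60 against AcRA (adjusted p = 0.773), and it was called lower in lhx1-AS against C (-2.40 ± 0.60, adjusted p = 0.0264). The related gene clcn5 gave -1.65 ± 0.55 in lhx1-AS against C (adjusted p = 0.0882, and 0.00679 with the block), and ano5 gave -1.01 ± 0.44 (adjusted p = 0.193, and 0.00624 with the block). With the block both were also lower in AcRA against C (-1.19, adjusted p = 0.0494, and -0.72, adjusted p = 0.0448), and ano5 in lhx1-AS/AcRA against AcRA (-0.83, adjusted p = 0.0153). A second probe set of ano5 was called lower in lhx1-AS against C (-1.71 ± 0.44, adjusted p = 0.0313). In all, 9 of the 23 genes with several probe sets had calls that differed between probe sets in at least 1 comparison, and in none did 2 probe sets pass in opposite directions.

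Among 4 aquaporin genes, aqp11 rose with induction. Its signals were 123, 236 and 194 in C, 386, 427 and 509 in AcRA, 127, 197 and 174 in lhx1-AS and 244, 379 and 273 under the label lhx1-AS/AcRA. Both induced groups were above both untreated groups. The change was 1.30 ± 0.34 in uninjected caps (adjusted p = 0.0351), lost without C I, C III or any AcRA array (adjusted p = 0.0678 to 0.169), and 0.85 ± 0.34 in injected caps (adjusted p = 0.184, and 0.0356 with the block). The call in uninjected caps was also lost without the variance trend. The collecting duct water channel gene aqp2 was at 3.24 to 59.3 and aqp3-a at 1.39 to 54.0 on the 12 arrays, and neither was called.

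The 5 calcium channel genes and trpc1, the only TRP channel gene, were called in no comparison, and all lay among the dimmest 40% of probe sets. The auxiliary subunit gene cacng1 was at 2.34 to 40.9 on the 12 arrays, and cacnb3 was at 3.57 to 40.4. Signals of trpc1 lay between 0.939 and 29.6. At such signals the SE of a change was 1.01 to 1.43 for the calcium channel genes, so that only a change of several units on the log2 scale could have passed. Of the 72 genes, 34 lay among the dimmest 40% and 38 above. The dim genes gave 2 calls in all, kcna4 in AcRA against C and atp6ap1.1 in lhx1-AS/AcRA against AcRA. The 38 brighter genes had medians of -0.70 in both comparisons of injected with uninjected caps, beside 0.02 for all genes of that brightness.

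**Figure D4:**
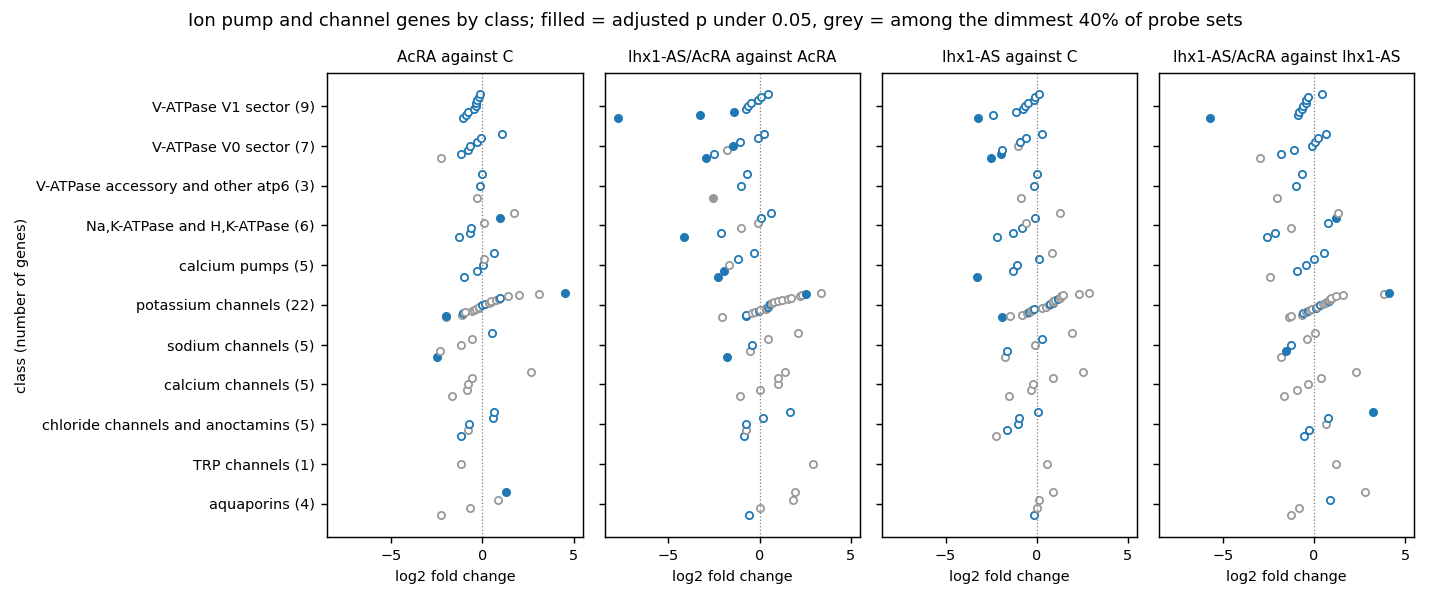
Limma's log2 fold change (x axis) of the 72 genes by class (y axis, with the number of genes) in 4 comparisons, with filled points where the adjusted p was under 0.05 and grey points for genes among the dimmest 40% of probe sets. The lower calls of lhx1-AS/AcRA against AcRA lie in the proton pump, its accessory genes, the other pumps and the sodium channels, and the only filled point on the higher side is kcnk5.

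Whether the response to induction differed between injected and uninjected caps was tested directly. With limma and no block, none of the 72 genes was called higher, beside 0.169% of all genes, and none lower, beside 0.338%. At an unadjusted p under 0.05, 4 were higher and 3 lower, 9.72% of the members beside 6.87% of all genes. With the block 2 were higher, beside 0.738% of all genes, and 2 lower, beside 0.999%. The 2 higher were clcn3 (2.63 ± 0.73, adjusted p = 0.172 without and 0.0165 with the block) and atp1b1, and the 2 lower were atp6v1b1 (-5.35 ± 1.19, adjusted p = 0.0774 without and 0.0472 with the block) and scnn1a (-2.09 ± 0.56, adjusted p = 0.159 without and 0.0171 with the block). Without lhx1-AS/AcRA experiment II, 1 gene was called lower in the fit without the block. Of the proton pump subunits other than atp6v1b1, none passed in either fit and none had an unadjusted limma p under 0.05, with values from -0.74 to 0.82.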

How the data were processed

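RNA of pooled animal caps was hybridised to 12 Affymetrix Xenopus laevis arrays, 3 in each of 4 groups. The deposited values are linear signal intensities from the GCOS software, scaled by the authors to a common trimmed mean. They hold no detection calls, so a low signal was not separated from background. Precision is limited by the number of arrays.

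Of 15611 probe sets, 108 controls were left out and 15503 tested. Signals under 1 (0.298% of all) were set to 1 before log2. A single symbol named 9304 probe sets, 195 carried several and 6004 carried none; 70 of the 72 members matched a RefSeq gene ID. Group means were fitted with limma 3.58.1 in R 4.3.3 (eBayes with a variance trend), with Benjamini-Hochberg adjustment over all probe sets and a threshold of 0.05. SE values are limma's. The scripts were tested on simulated data.

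Experiment numbers come from the labels. The 18 pairs of arrays that share a number had residual correlations of 0.152 to 0.269 and the 36 other pairs -0.19 to -0.00368, so the numbers were taken to pair the arrays. Where a fit blocked on experiment changed the call of a member, its value is printed too. Calls of marker genes are those of the fit without the block and were not checked with it. Where nothing says that experiments were separate clutches, p-values measure the spread between these arrays only.

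The text names atp6v1b1, up to 6 called members of a class, up to 2 uncalled members of a class by mean signal, lhx1, markers by mean signal and the 5 genes most like atp6v1b1. The genes foxi1, ca2, rhbg, itln1, foxa1, sox2, ncam1, gsc, atp6v0a1, atp6v0a4, atp6v0e1, atp6v1b2, atp6v1d, kcne1 and kcnk7 fall outside the part of the rule that applies to them or were singled out after their values were seen. Members and lists were chosen with earlier results of these data known. Alternatives were other scalings, 32 added to each signal, the dimmest 40% left out, no variance trend, compared groups only, the methods' t-test, any probe set, the block and each array left out.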

Additional observations from a re-analysis of the deposited data

How the results depend on the processing

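The 27 called changes of single genes were tried under up to 20 alternatives each. Of the outcomes, 461 kept their call, 77 kept the direction but missed the threshold, and 0 reversed. Several alternatives keep the same difference of group means, so that no direction could reverse under them. These were the block, no variance trend, the dim probe sets left out, the compared groups only and any array outside the comparison left out. The count of 0 reversed therefore tests direction only under alternatives that alter this difference, such as the other scalings. After Benjamini-Hochberg the methods' t-test called 0 members in every comparison and direction. The methods' own threshold asks for an unadjusted p under 0.05 with a 4-fold rise or a 2-fold fall, so that falls pass at a smaller change. At that threshold the t-test gave, in AcRA against C, 1 higher and 5 lower, in lhx1-AS/AcRA against AcRA 2 higher and 10 lower, in lhx1-AS against C 1 higher and 9 lower, in lhx1-AS/AcRA against lhx1-AS 4 higher and 4 lower, and for the difference of the responses 1 higher and 2 lower. Shares of all genes at that threshold were not counted, so these counts are not comparisons of rises with falls. With the replicate block the counts were 8 lower in AcRA against C, 4 higher and 17 lower in lhx1-AS/AcRA against AcRA, 1 higher and 15 lower in lhx1-AS against C, 6 higher and 9 lower in lhx1-AS/AcRA against lhx1-AS, and 2 higher and 2 lower for the difference; the block ended no call.

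In lhx1-AS/AcRA against AcRA, 2 members were higher under quantile normalization, scaling to 1 median, no variance trend, the dimmest 40% left out, the compared groups only or any probe set, and 3 with 32 added. Among all probe sets the higher calls there also rose, from 419 to 515 under quantile normalization, 736 under scaling to 1 median and 525 with 32 added. In lhx1-AS against C, 1 was higher under scaling to 1 median and 8 were lower with 32 added. Among all probe sets the higher calls there went from 391 to 787 under scaling to 1 median, and the lower calls from 693 to 919 with 32 added. For the other settings of this paragraph and for arrays left out, the calls among all genes were not counted. Without the variance trend 1 was higher in AcRA against C and 1 lower in lhx1-AS/AcRA against lhx1-AS, as with the compared groups only in the latter. The causes were not tested.

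Leaving out 1 array gave 1 to 3 higher and 2 to 3 lower in AcRA against C (1 higher without C I, C III, AcRA II or AcRA III), 1 to 2 higher and 4 to 11 lower in lhx1-AS/AcRA against AcRA (4 without AcRA I, 6 without lhx1-AS/AcRA II), 0 higher and 3 to 7 lower in lhx1-AS against C (3 without C III), 3 to 4 higher and 1 to 4 lower in lhx1-AS/AcRA against lhx1-AS (1 without lhx1-AS I, 4 without lhx1-AS/AcRA III), and 0 higher and 0 to 1 lower for the difference. The ratio of atp6v1b1 to the other subunits then changed by -0.42 to 0.34 in AcRA against C, -7.85 to -5.80 in lhx1-AS/AcRA against AcRA, -1.73 to -0.93 in lhx1-AS against C and -6.57 to -4.53 in lhx1-AS/AcRA against lhx1-AS. Signals near the floor limit the sizes of the largest folds: with 32 added, that ratio fell by 4.38 and 3.12 in the comparisons of lhx1-AS/AcRA.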
